A study of Mus musculus with 5 samples.

Results

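The enzymes that make, remove and read poly(ADP-ribose) were followed through LLC tumors treated with a PARP inhibitor, with an azacytidine carrier or with both. The 8 genes were chosen by name as the targets of the inhibitor and their partners: PARP1, PARP2, PARP3, PARP4, PARG, TNKS, TNKS2 and XRCC1. All 8 were found, each in 1 row of every table, among 13979 gene symbols shared by the 3 tables that supplied the levels. RNA sequencing covered 5 groups with 1 library each. LLC is the Lewis lung carcinoma, a mouse line that grows as tumors in C57BL/6 mice. The Control group carries no agent in its labels, and the control mice of the study received saline. The BMN group received BMN673, an inhibitor of PARP1 and PARP2 that also holds these enzymes on DNA. The PAZA group received a polymer carrier to which 5-azacytidine, an inhibitor of DNA methyltransferases, is attached. The remaining groups received BMN loaded in PAZA, at a low dose and at a high dose. The labels give no dose, and the paper names BMN, PAZA and the low-dose combination at a common dose. They place the LLC cells in culture, with a treatment of 72 h, whereas the paper describes RNA from tumors, grown in female mice that were injected intravenously. Whether animals were pooled for a library is not given in the sources used here.

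Poly(ADP-ribose) is a chain built from NAD on proteins near a DNA break. PARP1 and PARP2 sense strand breaks and build the chain, PARG shortens it, and XRCC1 binds it and gathers the enzymes that close a single-strand break. Tankyrases, encoded by TNKS and TNKS2, build the same polymer on telomere and Wnt pathway proteins rather than at breaks. Inhibitors of PARP1 and PARP2 are used mainly in cancers that lack homologous recombination.

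PARP2 was the member that stood furthest below Control, and its level was lower in all 4 treated libraries. So were those of PARP3 and PARP4, 3 of 8 members against 21.7% of 12090 genes. XRCC1 and TNKS2 were higher than Control in all 4, 2 of 8 against 16.2%. PARP1, the main target of BMN, and TNKS2 stayed within 1.44-fold and 1.15-fold over the 5 libraries. PARP3, PARP4 and PARG were lower in each library that contained PAZA than in Control or BMN, 3 of 8 against 29.5% of genes. With 1 library per group, none of these differences has a replicate check and no p-value can be given.

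Levels are FPKM, a unit read from the values because the files name none: fragments per kilobase of gene, rescaled so that each column sums to 1000000 over the shared symbols. They are therefore comparable between genes and, with that rescaling, between tables that the authors scaled separately. Read counts were not used here and the depth of each library is unknown, so no counting interval could be computed. Fold changes are differences of log2(level + 1), which understate the change of weakly expressed genes such as XRCC1. A gene was called when it differed at least 1.5-fold, which is 0.58 on this scale. Comparisons that use the same library are not independent of each other, and all 4 comparisons against Control rest on 1 Control library.

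Some features of all libraries bear on these levels. RN7SK and the mitochondrial ribosomal RNAs MT-RNR1 and MT-RNR2 took between 29.4% and 38.1% of a library's summed level, and RN7SK alone between 6.66% and 13.6%. Together they took 30.6% in Control and 29.4% in BMN, against 31.8% in PAZA, 35.2% in low-dose and 38.1% in high-dose BMN/PAZA. Over the genes compared, the log2 fold change had a median other than 0, and whether these RNAs set it was not tested. This median was −0.10 for PAZA, 0.10 for BMN, −0.08 for low-dose BMN/PAZA and −0.22 for high-dose BMN/PAZA against Control. Leukocyte markers summed to between 128 and 179, endothelial markers to between 26.4 and 44.0 and fibroblast markers to between 96.4 and 239, so that the material labelled as LLC cells held RNA of other cell types in all 5 libraries. CD3E was listed at 0 in the high-dose library. The carcinoma markers KRT8, KRT18, EPCAM and CDH1 summed to between 118 and 177, mostly from KRT8, with KRT18 listed at 0 in Control and EPCAM at 0 in PAZA. In such bulk tissue, fewer cells of a type and less RNA per cell cannot be told apart.

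The values of 1 library could be compared where it was deposited in more than 1 table. For each member, the values of PAZA, BMN and both BMN/PAZA libraries kept the constant ratio between tables, and the largest deviation was 0.0310%. Of all genes compared in the same way, 3.22% lay more than 0.5% from the constant for low-dose BMN/PAZA between the tables with BMN and with high-dose BMN/PAZA. No member value that could be compared therefore disagreed between files once the constant was removed. Control was in no other table, so that its values, on which all comparisons against Control rest, could not be checked in this way. The BMN and high-dose values of the members were equal in both of their tables. The constants were between 0.987 and 1.05 except for the low-dose column of the table with the high dose. The low-dose values of the table with the high dose were 3.26 times those of the table with BMN and 3.41 times those of the table with PAZA.

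On GRCm38, in the GENCODE M21 annotation, Parp1 lies on chromosome 1 from 180568924 to 180601254. Parp2 lies on chromosome 14 from 50807841 to 50821301, Parg on the same chromosome from 32201949 to 32297550, and Parp4 from 56575619 to 56659794. Parp3 lies on chromosome 9 from 106470322 to 106476949 and Xrcc1 on chromosome 7 from 24546289 to 24573440. Tnks lies on chromosome 8 from 34826460 to 34965690, and Tnks2 on chromosome 19 from 36834232 to 36893477.

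A feature that the choice of members did not use is their position. For 6 of the 8 members, another gene starts on the opposite strand within 1000 bp of the member's own start. The same holds for 18.5% of 21951 annotated protein-coding genes, whether or not they are expressed here. This comparison was chosen after the data were seen, and genes at levels like those of the members were not taken apart. Parg and Timm23 start 51 bp apart, Parp2 and Rpph1 74 bp apart, Parp2 and Ccnb1ip1 109 bp apart, Xrcc1 and Pinlyp 171 bp apart, Parp4 and Cenpj 194 bp apart, Tnks and Gm9939 638 bp apart, and Parp3 and Rrp9 986 bp apart. Parp1 and Tnks2 have no such neighbour. The stretches between the start of Parp2 and that of Rpph1, and between Parg and Timm23, are shown because these members varied most and each stretch lies upstream of both genes of its pair. They come from the RefSeq promoter table (GRCm38.p6), are read 5′ to 3′ on the plus strand, and carry CpG dinucleotides, the sites of DNA methylation, in capitals.
Parp2 to Rpph1, chr14:50807768-50807840: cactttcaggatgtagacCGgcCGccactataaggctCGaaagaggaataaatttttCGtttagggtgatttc
Parg to Timm23, chr14:32201899-32201948: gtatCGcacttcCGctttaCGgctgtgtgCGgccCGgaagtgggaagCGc
The first stretch has 73 bases with 4 CpG and a GC content of 43.8%, and the second has 50 bases with 6 CpG and a GC content of 64.0%. In the wider window of 300 bases around the RefSeq start, Parp1 has 20 CpG, Parp2 25, Parp3 16, Parp4 17, Tnks2 29 and Xrcc1 7, and the 2 start sites of Parg have 31 and 33. The median over 32851 promoters, whether or not their genes were expressed here, was 7. The Xrcc1 window stood at this median, and the other 6 members matched in the table stood above it. This Xrcc1 window, from 24546449 to 24546748, lies past the start of 24546289 used above and does not cover the stretch toward Pinlyp. The motif searched was CG, which reads the same on both strands. DNA methylation was not measured in these libraries.

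PARP1 makes most of the cell's poly(ADP-ribose) after a strand break. Its level was 26.4 in Control, 30.8 in PAZA, 35.5 in BMN, 25 in low-dose BMN/PAZA and 24.6 in high-dose BMN/PAZA. The values lay close together, with BMN highest and both combinations near Control. The log2 fold change against Control was 0.21 for PAZA, 0.41 for BMN, −0.08 for the low dose and −0.10 for the high dose, so that PARP1 was called in none of the 4 comparisons. The sign of the combinations turned with the scaling, to 0.09 for the low dose and 0.16 for the high dose with the upper quartile, and to 0.12 for the high dose relative to the median of all genes. Its ratio of highest to lowest level, 1.44, was larger than that of 29.2% of 7243 genes with a level of at least 5 in every library, for which the median was 1.62.

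PARP2 is the second break-sensing PARP and the other main target of BMN. Its level was 41.2 in Control, 22.9 in PAZA, 18.9 in BMN, 13.0 in low-dose BMN/PAZA and 17.8 in high-dose BMN/PAZA. Control alone was above 23, and the low-dose library was lowest. Against Control, the log2 fold change was −0.82 for PAZA, −1.08 for BMN, −1.59 for the low dose and −1.16 for the high dose. The share of genes with a lower fold change was 7.74% in the PAZA comparison, 2.18% in BMN, 0.844% in the low dose and 3.69% in the high dose. PARP2 was the only member at least 1.5-fold below Control in all 4 treated libraries, a pattern met by 1.72% of 12090 genes. The 4 fold changes share the Control library, so that they are not 4 separate measurements of a decrease.

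PARP3 and PARP4 are less studied relatives, PARP3 at double-strand breaks and PARP4 in the vault particle. The level of PARP3 was 32.9 in Control and 31.8 in BMN, against 19.1 in PAZA, 24.8 in low-dose and 19.5 in high-dose BMN/PAZA. PARP4 was at 11.9 in Control and 10.1 in BMN, against 6.97 in PAZA, 7.82 in the low dose and 6.79 in the high dose. Both genes were thus lower in every PAZA-containing library than in either library without PAZA. The log2 fold change against Control was −0.75 for PARP3 and −0.70 for PARP4 in PAZA, and −0.73 for both in the high dose. Relative to the median of all genes the high-dose values were −0.50 and −0.51, which is below the 1.5-fold threshold. In the low dose the values were −0.39 and −0.55.

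**Figure D1:**
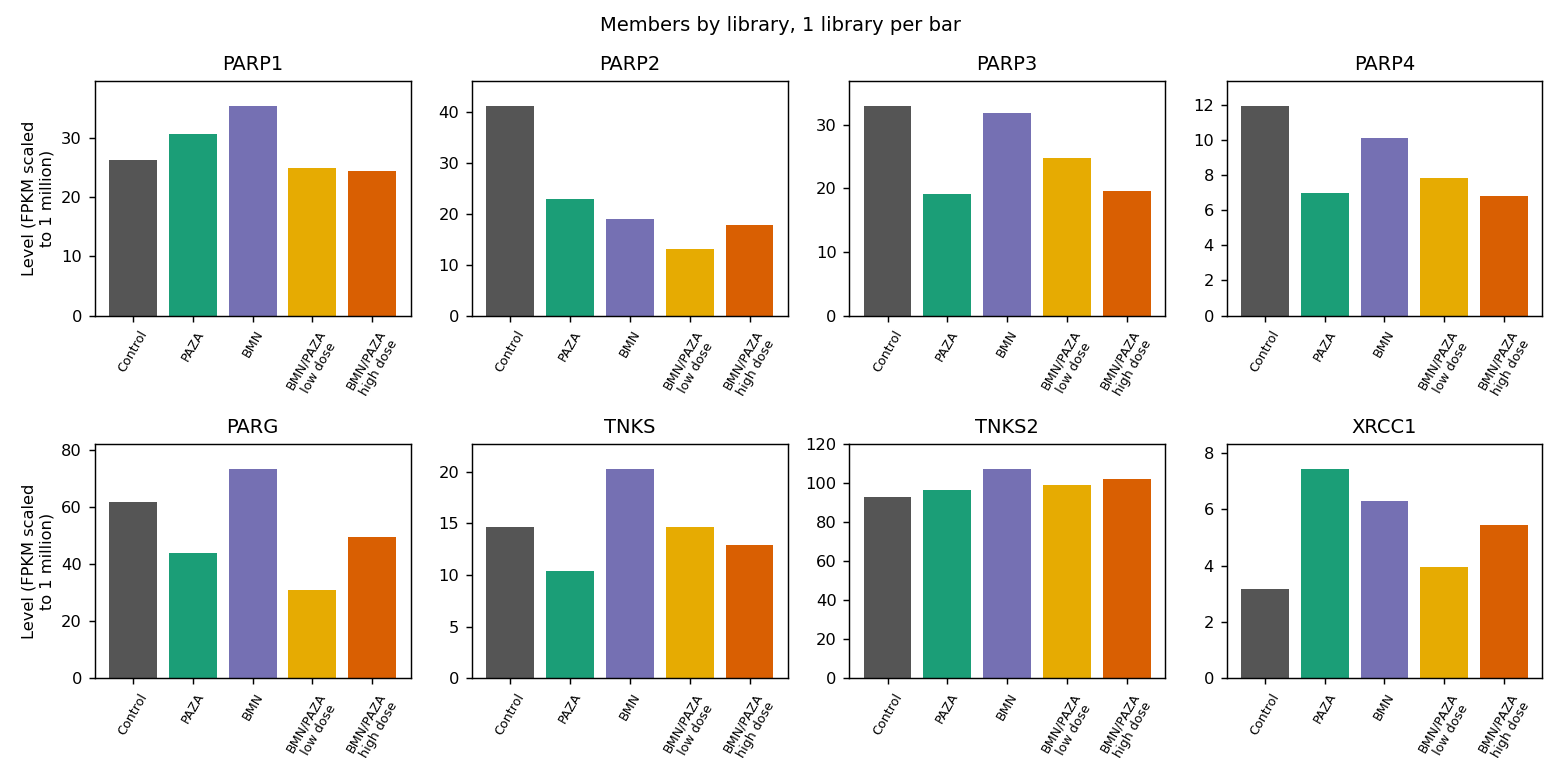
Level of each member (FPKM rescaled to a sum of 1000000, y axis from 0) in the 5 libraries, with 1 bar per library and no error bars because each group has 1 library. PARP2 is highest in Control at 41.2 and between 13.0 and 22.9 in the treated libraries, whereas TNKS2 stays between 93.2 and 107.

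PARG is the main enzyme that shortens poly(ADP-ribose). Its level was 61.6 in Control, 43.9 in PAZA, 73.3 in BMN, 30.9 in low-dose BMN/PAZA and 49.4 in high-dose BMN/PAZA. BMN was highest and the low dose lowest, a 2.37-fold span that exceeded that of 90.1% of the 7243 genes. Against Control, the log2 fold change was −0.97 for the low dose, −0.48 for PAZA, −0.31 for the high dose and 0.25 for BMN. Relative to the median of all genes, these values were −0.90, −0.38, −0.09 and 0.15. Against BMN, the low dose stood at −1.22, and 3.34% of the 11686 genes had a lower value.

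PARP3, PARP4 and PARG were the members that were lower in all 3 PAZA-containing libraries than in both others, 3 of 8 against 29.5% of 12090 genes. The opposite pattern was met by 0 members and by 7.77% of genes. The markers of keratinocytes split the libraries in the same way. The keratinocyte markers KRT5, KRT14, KRT10 and KRT1 summed to 67.2 in Control and 201 in BMN, against 8.0 in PAZA, 1.85 in the low dose and 12.4 in the high dose. All 4 markers split the libraries so, and KRT5 and KRT1 were listed at 0 in the low dose. The proliferation markers other than PCNA, which are MKI67, TOP2A, CCNA2, CCNB1 and MCM2, summed to 565 in Control and 708 in BMN, against 534, 479 and 469 in PAZA, the low dose and the high dose. Of the 6 proliferation markers, 2 split the libraries so, MKI67 and TOP2A, and CCNA2, CCNB1, PCNA and MCM2 did not. RN7SK, MT-RNR1 and MT-RNR2 together also took a larger share of each PAZA-containing library than of Control or BMN. The part of these RNAs, or of either marker set, in the levels of PARP3, PARP4 and PARG was not tested.

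The tankyrases differed in level and in steadiness. TNKS2 was the highest member in every library, at 93.2 in Control, 96.4 in PAZA, 107 in BMN, 99.4 in low-dose and 102 in high-dose BMN/PAZA. It was among the steadiest genes of the study, since only 1.28% of the 7243 genes had a smaller span. TNKS was at 14.6 in Control, 10.4 in PAZA, 20.3 in BMN, 14.7 in the low dose and 12.9 in the high dose, and none of its fold changes against Control was called. The ratio of TNKS2 to TNKS ranged from 5.30 in BMN to 9.27 in PAZA.

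XRCC1 is the scaffold that poly(ADP-ribose) brings to single-strand breaks. Its level was 3.18 in Control, 7.44 in PAZA, 6.30 in BMN, 3.94 in low-dose BMN/PAZA and 5.45 in high-dose BMN/PAZA. PAZA, BMN and the high dose were above 5, and the low dose was next to Control. The log2 fold change against Control was 1.01 for PAZA, 0.80 for BMN, 0.24 for the low dose and 0.62 for the high dose. XRCC1 was the lowest member in every library but PAZA, between the 34.5 and 48.9 percentiles of all genes, so that counting error at unknown depth bears most on this gene.

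**Figure D2:**
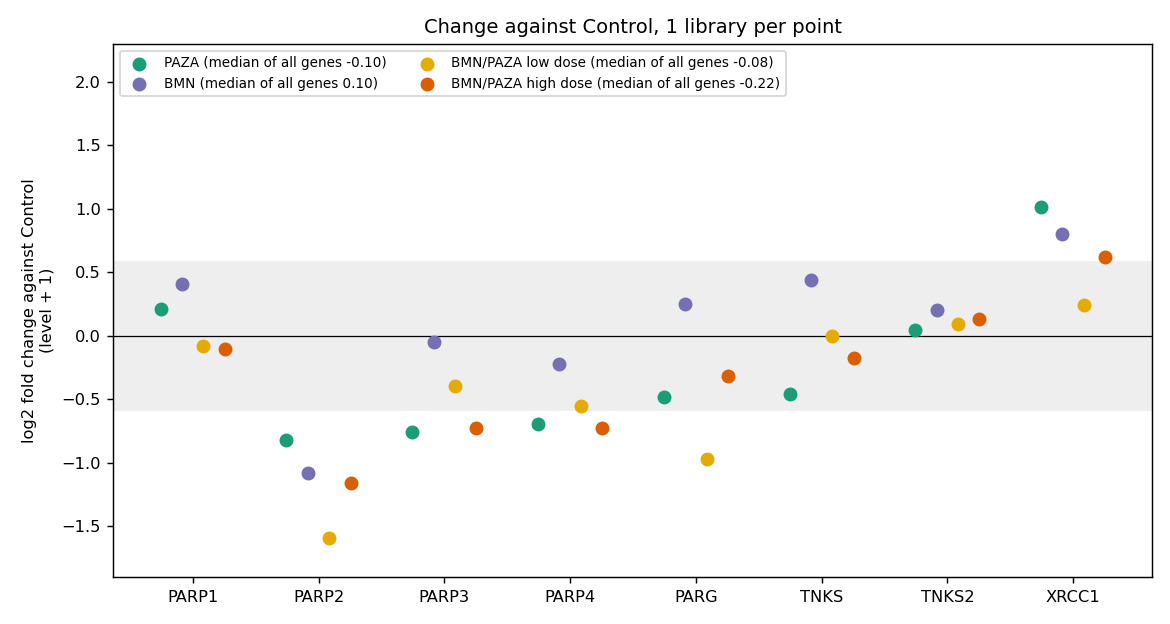
Log2 fold change of each member against Control on the log2(level + 1) scale, with 1 point per treated library. The grey band marks changes under 1.5-fold, and the legend gives the median over all genes. All 4 points of PARP2 lie below the band, from −0.82 to −1.59, whereas 3 of the 4 points of XRCC1 lie above it.

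The counts of members past 1.5-fold can be read beside those of all genes. In PAZA against Control, 3 members were lower (PARP2, PARP3 and PARP4) and XRCC1 was higher, 4 of 8 against 27.8% of 11465 genes, of which 16.2% were lower and 11.6% higher. PARP4 was not called there with upper quartile scaling, at −0.55, or as deposited, at −0.58, which left 3 of 8. In BMN against Control, PARP2 was lower and XRCC1 higher, 2 of 8 against 21.7% of genes, of which 7.54% were lower and 14.1% higher. In low-dose BMN/PAZA against Control, PARP2 and PARG were lower, 2 of 8 against 27% of genes, of which 14.8% were lower and 12.2% higher. In high-dose BMN/PAZA against Control, PARP2, PARP3 and PARP4 were lower and XRCC1 higher, 4 of 8 against 29.9%, of which 20.8% were lower and 9.11% higher. Centred on the median of all genes, the high-dose count was 2 of 8 against 25.3%. The median log2 fold change of the members was −0.47 in PAZA, 0.23 in BMN, −0.24 in the low dose and −0.24 in the high dose.

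The combination was also set against each of its parts. In low-dose BMN/PAZA against BMN, all 8 members had a negative fold change, beside 36.4% of all genes with a positive one. The gene in the middle of that distribution stood at −0.18. PARG was the only member called, 1 of 8 against 31.3% of genes. Relative to the median of all genes, 7 members were lower, from −0.15 for PARP4 to −1.04 for PARG, and TNKS2 was at 0.07. In high-dose BMN/PAZA against BMN the median of all genes was −0.31, and PARP3 at −0.68 and TNKS at −0.62 were called, 2 of 8 against 33.8%. Centred on that median no member was called, against 24.9% of genes. In low-dose BMN/PAZA against PAZA, PARP2 and XRCC1 were called, both at −0.77, 2 of 8 against 19.1% of genes.

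The doses were compared directly in 1 table. After rescaling, PARG was at 30.9 in the low dose and 49.4 in the high dose, a log2 fold change of −0.66, and was the only member called, 1 of 8 against 20.6% of genes. PARP2 followed at −0.43 and XRCC1 at −0.38, whereas PARP3 was at 0.33 and PARP1 at 0.02. As deposited, without rescaling, all 8 members were more than 1.5-fold higher in the low dose, PARG included at 1.0, because the low-dose column of that table sums to 1917690 and the high-dose column to 588275.

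Ratios between members of 1 library do not depend on how the columns were scaled. The ratio of PARP2 to PARP1 was 1.56 in Control, 0.745 in PAZA, 0.533 in BMN, 0.521 in low-dose and 0.727 in high-dose BMN/PAZA. PARP2 thus exceeded PARP1 in Control only. The ratio of PARP3 to PARP1 was 1.24 in Control and between 0.620 and 0.994 in the treated libraries. PARG exceeded PARP1 in all 5 libraries, by 2.33 times in Control, 2.07 in BMN and 2.01 in the high dose, but by 1.43 in PAZA and 1.24 in the low dose. The ratio of XRCC1 to PARP2 was 0.0773 in Control and between 0.303 and 0.333 in the 4 treated libraries. The Control ratio rests on 1 library and on the member with the lowest level there. How often other pairs of genes show such a pattern was not examined.

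**Figure D3:**
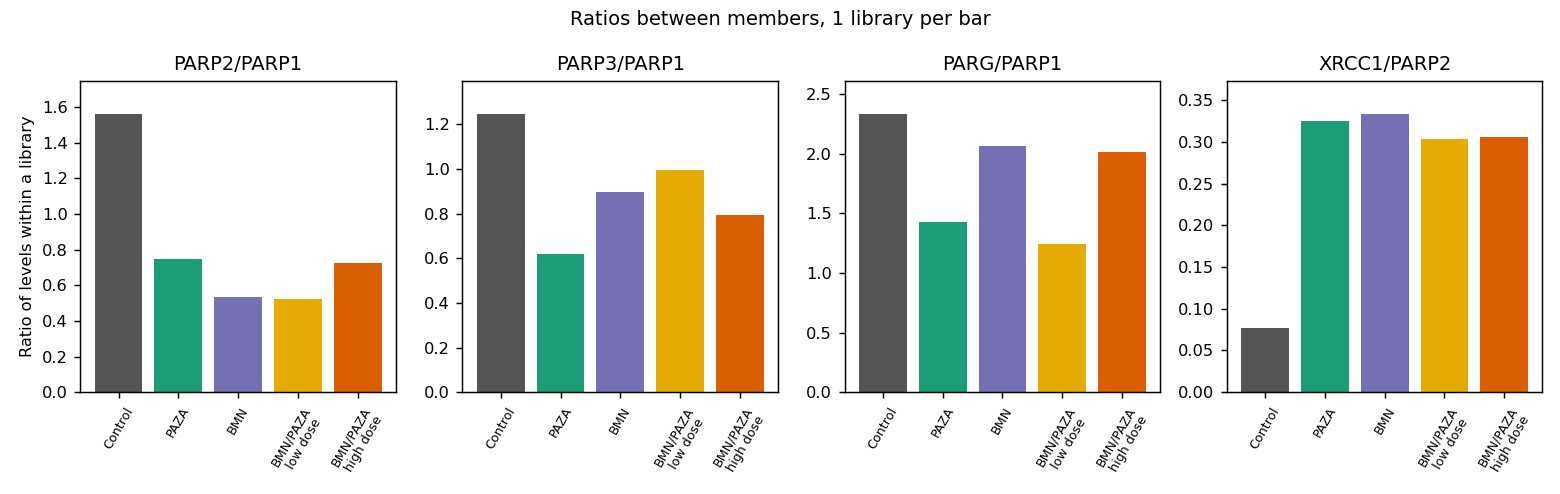
Ratios of the levels of 2 members within each library (y axis from 0), with 1 bar per library. The PARP2/PARP1 ratio is above 1 in Control only, at 1.56, and the XRCC1/PARP2 ratio is 0.0773 in Control and at least 0.303 in each treated library.

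The head-to-head neighbours with values were TIMM23, RPPH1, CCNB1IP1, CENPJ and RRP9. TIMM23, which encodes a subunit of the mitochondrial import machinery, was at 23.4 in Control and 33.5 in BMN, against 58.1 in PAZA, 59.2 in low-dose and 50.6 in high-dose BMN/PAZA. TIMM23 was thus above Control and BMN in each PAZA-containing library, a pattern met by 7.77% of 12090 genes. Its neighbour PARG was below both there, a pattern met by 29.5%. Between Control and BMN, both genes were higher in BMN. RPPH1, the RNA of ribonuclease P, was at 898 in Control and 645 in BMN, against 2140, 2500 and 2070 in PAZA, the low dose and the high dose. RPPH1 was thus below Control in BMN alone, whereas PARP2 was below Control in all 4 treated libraries. CCNB1IP1, the protein-coding gene beside PARP2, was at 3.97 in Control, 3.30 in PAZA, 3.10 in BMN, 2.53 in the low dose and 1.14 in the high dose. It was thus below Control in all 4 treated libraries, as were 21.7% of 12090 genes. Its levels are low, so that counting error at unknown depth bears on them. CENPJ was lower in PAZA-containing libraries, as was its neighbour PARP4, at 14.0, 12.5 and 11.6 against 19.8 in Control and 25 in BMN. This pattern, too, is the one met by 29.5% of genes. RRP9, beside PARP3, ranged from 36.1 in the high dose to 57.8 in the low dose.

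**Figure D4:**
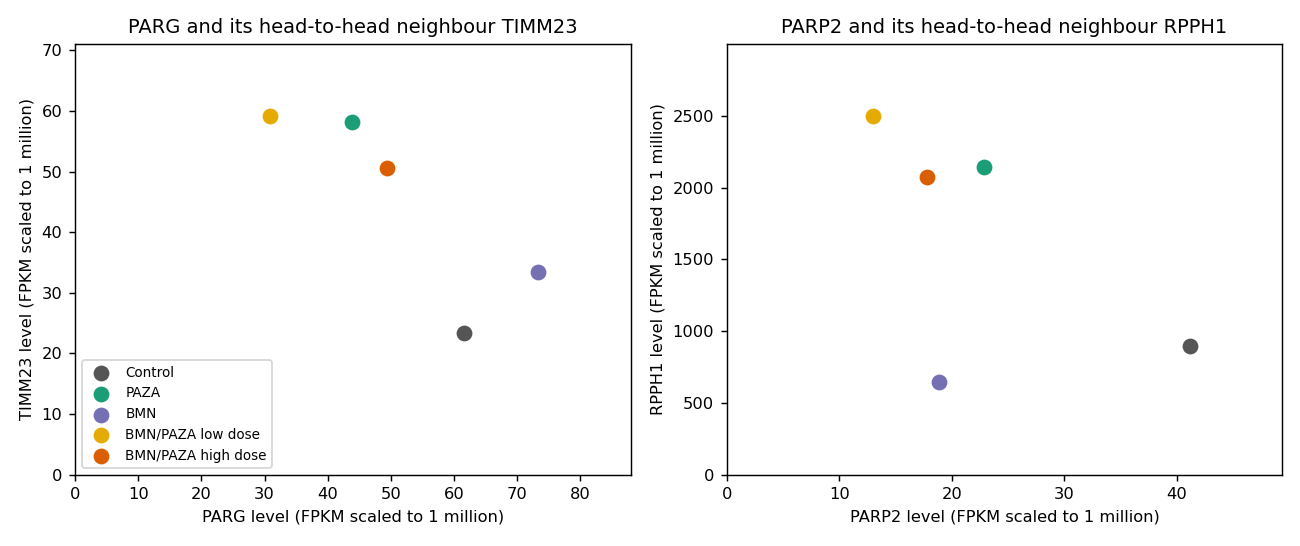
Level of TIMM23 (y axis) against that of PARG (x axis) on the left and of RPPH1 against that of PARP2 on the right, in FPKM rescaled to a sum of 1000000, with 1 point per library. The PAZA-containing libraries have TIMM23 between 50.6 and 59.2 and PARG between 30.9 and 49.4, and Control and BMN have TIMM23 at 23.4 and 33.5 and PARG at 61.6 and 73.3.

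Exons of Parp3 and Rrp9 share 20 bases, those of Tnks and Gm9939 635 bases, those of Parp4 and the antisense gene Gm16573 335 bases, and those of Parp1 and Mir6904 7 bases. Whether reads were assigned by strand is not given in the sources used here, so that reads from the stretches shared with a gene on the opposite strand cannot be told apart. Mir6904 lies on the same strand as Parp1, so that strand would not separate their reads either.

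Other genes of ADP-ribose metabolism were taken from 7 lists with 38 genes, of which 37 were among the shared symbols and H2AFY was not. In PAZA against Control 3 were called higher and 8 lower of 35 compared. The counts were 6 and 4 of 36 in BMN, 4 and 7 of 36 in low-dose BMN/PAZA and 4 and 12 of 36 in high-dose BMN/PAZA. Over all genes, 11.6% were called higher and 16.2% lower in PAZA, 14.1% and 7.54% in BMN, 12.2% and 14.8% in the low dose, and 9.11% and 20.8% in the high dose. Centred on the median of all genes, the counts of higher and lower genes were 5 and 5 in PAZA, 5 and 7 in BMN, 4 and 6 in the low dose and 4 and 6 in the high dose. The centred shares of all genes called higher and lower were 14.9% and 12% in PAZA, 11.3% and 10% in BMN, 14.7% and 11.7% in the low dose, and 14.8% and 10.5% in the high dose.

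The interferon-responsive PARPs were a list of 7 with PARP9, PARP10, PARP11, PARP12, PARP14, ZC3HAV1 and DTX3L, the ubiquitin ligase partner of PARP9. Of these, 4 were called lower in PAZA, 1 in BMN, 3 in the low dose and 6 in the high dose, and PARP12 was called higher in BMN. Of all genes, 16.2%, 7.54%, 14.8% and 20.8% were called lower. The call of PARP14 in the low dose, 1 of those 3, was lost with either other table. Centred on the median of all genes, 2, 2, 3 and 3 were lower, beside 12%, 10%, 11.7% and 10.5% of all genes centred in the same way. The median log2 fold change was −0.62, −0.36, −0.56 and −0.75, beside −0.10, 0.10, −0.08 and −0.22 for all genes. DTX3L was at 32.5 in Control and 24.9 in BMN, against 15.8 in PAZA, 16.3 in the low dose and 15.4 in the high dose. PARP9 was at 40.1 and 31.1 against 24.9, 23.6 and 22.3. Both were thus lower in every PAZA-containing library than in Control or BMN, as were 29.5% of 12090 genes. PARP11 was lowest in BMN, at 4.04 against 8.59 in Control.

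PARP14 was at 32.3 in Control, 22.2 in BMN, 14.9 in PAZA, 13.6 in the low dose and 15.2 in the high dose, but its values disagreed between tables. For the low dose, the table with BMN gave 2.0 times the value used here after the constant, a level of 27.3, and the table with PAZA gave a level of 23.5. On the log2 scale the low dose stood at −1.18 against Control with the value used here, but at −0.23 and −0.44 with those of the other tables, both under 1.5-fold and both above BMN in level. PARP12 differed in the same way, at 2.73 in the low dose against 5.46 and 5.73 from the other tables. Its direction against Control, 3.8, turned with the table.

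**Figure D5:**
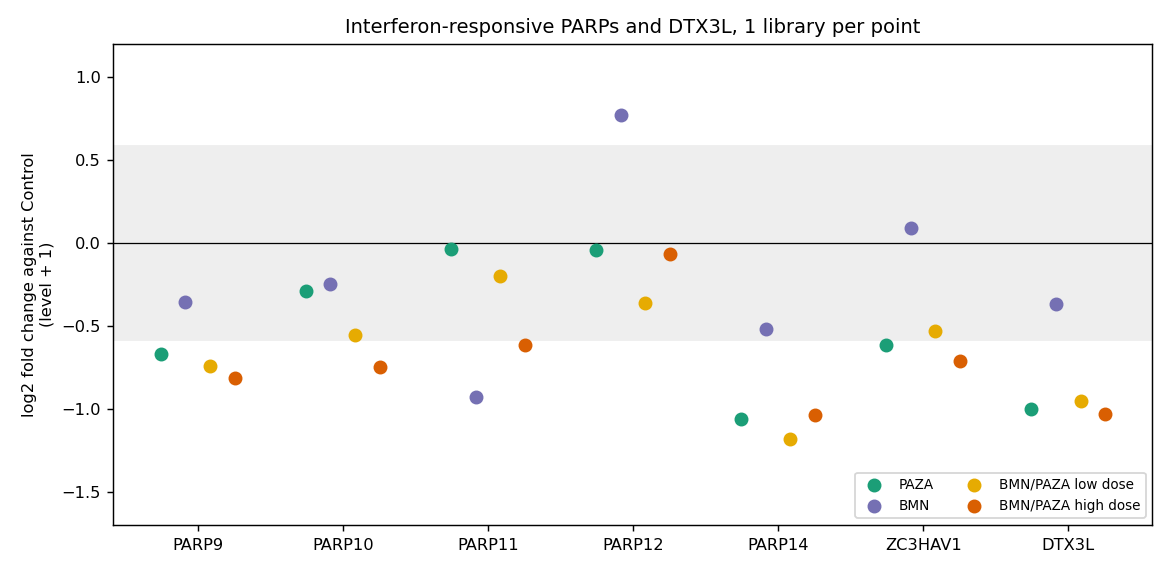
Log2 fold change against Control of the interferon-responsive PARPs and DTX3L on the log2(level + 1) scale, with 1 point per treated library and a grey band for changes under 1.5-fold. DTX3L lies between −0.95 and −1.03 in the 3 PAZA-containing libraries and at −0.37 in BMN, and the low-dose points of PARP12 and PARP14 depend on the table used.

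Readers of poly(ADP-ribose) and cofactors of the PARPs had 0 genes called higher and 2, 0, 4 and 2 of 7 called lower in PAZA, BMN, the low dose and the high dose. The shares of all genes called lower were 16.2%, 7.54%, 14.8% and 20.8%. Centred, 2, 0, 3 and 1 were lower, beside 12%, 10%, 11.7% and 10.5% of all genes. HPF1, the cofactor that directs PARP1 and PARP2 to serine, was at 88.2 in Control and between 88.7 and 107 in the treated libraries. TRIP12, a ubiquitin ligase that binds poly(ADP-ribose) and limits PARP1, was at 474 in Control and 478 in BMN, against 273, 276 and 265 in PAZA, the low dose and the high dose. TIMELESS, a replication fork protein that binds PARP1, was at 22.7 in Control and 17.1 in BMN, against 9.67, 13.8 and 13.4.

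Of the XRCC1 partners, LIG3, the ligase that seals the break, was at 39.3 in Control and between 33.8 and 45.1 in the treated libraries. POLB, which fills the gap, was at 26.9 in Control, 29.3 in PAZA, 35.9 in the low dose and 25.1 in the high dose, and was listed at 80.6 in BMN. The BMN value of POLB was 2.246 times its low-dose value, as was that of PCNA, and 138 of 10629 genes stood within 0.1% of this ratio, against 6 and 3 genes in windows 1% below and above it. The closest member was PARG, 5.59% away. POLB also disagreed between tables in PAZA and in the low dose, so that its level in BMN is reported as listed only. APTX, which releases stalled ligation products from the ends of a break, was at 3.90 in Control, 4.29 in PAZA, 5.99 in BMN and 5.16 in the low dose, and at 1.91 in the high dose.

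The genes with the pattern most like that of PARP1 were PNPT1, KLHL20, CCNA2, PSTPIP1 and KCTD5, out of 7242 genes with a level of at least 5 in every library. Their log2 fold changes against Control differed from those of PARP1 by at most 0.06, 0.07, 0.07, 0.07 and 0.08 over the 4 treated libraries. CCNA2, a cyclin of DNA synthesis, was at 122 in Control, 149 in PAZA, 168 in BMN, 121 in the low dose and 112 in the high dose. The low-dose value of PNPT1 disagreed between tables, at 106 here and at 211 and 195 from the others. Its PAZA value did so too, at 124 here and 101 from the other table, beside 112 in Control, so that its direction turned.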

How the data were processed

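Per the labels, reads were processed with HISAT2 and StringTie on GRCm38, with versions and strand not given in the sources used here. The authors deposited 5 tables of 2 libraries each, with 1 value per gene, whose unit the files do not name and which was read as FPKM, since the values are not whole and their sums differ between columns. No read counts were used, so that depth is unknown. Control and PAZA came from their common table, BMN and high-dose BMN/PAZA from theirs, and low-dose BMN/PAZA from the table with the high dose. The row with the highest mean was kept per symbol, and columns were scaled to 1000000 over 13979 shared symbols. Genes with a level of at least 1 in either library were compared on log2(level + 1), in 8 comparisons, and called at 1.5-fold. No test was run, with 1 library per group. Members and lists were chosen with earlier results of these data known. All 8 members were named, with up to 4 genes per pathway list past 1.5-fold against Control in at least 2 treated libraries, and the 5 genes nearest to PARP1. The values of 1 gene of the pathway lists are not reported here. Other genes named beside these, in the lists, as markers or as neighbours, were chosen after their values were seen. Alternatives were a pseudocount of 0.1, no filter, centring, upper quartile scaling, summed rows, other tables, a 2-fold threshold and the deposited values. Leaving out RN7SK and the mitochondrial ribosomal RNAs was added once the values had been seen, as were the centred counts of the pathway lists and the fold changes of their genes from other tables. Scaling and fold changes were checked on simulated data. Python 3.11.15, numpy 2.4.6, pandas 2.3.3 and matplotlib 3.10.9 were used.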

Additional observations from a re-analysis of the deposited data

Results flagged for a closer look

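XRCC1 moved in opposite directions when BMN was added without and with PAZA. Its log2 fold change was 0.80 in BMN against Control and −0.77 in low-dose BMN/PAZA against PAZA, a difference of 1.58, from levels of 3.18, 6.30, 7.44 and 3.94 in Control, BMN, PAZA and the low dose. The difference was not tested, since each group has 1 library. The labels give no dose, and the paper names these treated groups at a common dose. No other member was past 1.5-fold in opposite directions in this contrast or when PAZA was added without and with BMN.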

How the results depend on the processing

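No paired analysis was possible because each group has 1 library. Of 528 values of a member in a comparison under an alternative, 503 kept their direction where called and their side of 1.5-fold, 24 crossed it, and 1 reversed. PARP2 was at least 1.5-fold below Control in all 4 treated libraries under each alternative of scaling, table, filter and pseudocount. The number of members past 1.5-fold in low-dose BMN/PAZA was 2 against BMN and 3 against Control with a pseudocount of 0.1. In PAZA against Control it was 3 with upper quartile scaling and as deposited, and in the high dose against Control 3 without RN7SK and the mitochondrial ribosomal RNAs. With centring, and likewise with upper quartile scaling, it was 2 in high-dose BMN/PAZA against Control and 0 in the high dose against BMN. It was also 0 in the high dose against BMN as deposited and without RN7SK and the mitochondrial ribosomal RNAs. At 2-fold the count was 1 in each comparison against Control, and 0 in the low dose against PAZA, in the high dose against BMN and between doses. Between doses as deposited, without scaling, the count was 8 and PARG was at 1.0, which follows from the sums of the columns. With the low-dose, PAZA or BMN columns of other tables, every member value kept its side of 1.5-fold, and every called value its direction. TNKS in the low dose against Control, not called at 0.0025, turned to −0.020 and −0.016 with the low dose of the tables with BMN and with PAZA. Under other scalings the sign of values under 1.5-fold also turned for PARP1, PARP2, TNKS, TNKS2 and XRCC1 in some comparisons, such as PARP1 in both combinations against Control and PARP2 in the high dose against BMN. Depth is unknown, which limits XRCC1 and other weakly expressed genes most.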

Other observations

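Among enzymes that remove ADP-ribose other than PARG, OARD1, which releases it from acidic residues, had the highest level of its list of 6, at 36.4 in Control, 52.7 in PAZA, 57.6 in BMN, 28.9 in low-dose BMN/PAZA and 39.1 in high-dose BMN/PAZA. It was lowest in the low dose, where PARG was lowest as well. ADPRHL2, which removes the last ADP-ribose from serine, was at 2.69 in Control and between 1.76 and 3.81 in the treated libraries. NUDT16 was at 0.448 in Control and at 1.98 and 2.03 in the low and the high dose, and MACROD2 was at 2.70 in Control and at 1.40 and 1.2 in PAZA and BMN. Of this list, 0, 1, 1 and 1 genes were called higher and 1, 1, 0 and 0 lower in PAZA, BMN, the low dose and the high dose. These counts stand beside 11.6%, 14.1%, 12.2% and 9.11% of all genes called higher and 16.2%, 7.54%, 14.8% and 20.8% called lower. Centred, 1, 0, 1 and 1 were higher and 0, 1, 0 and 0 lower, beside 14.9%, 11.3%, 14.7% and 14.8% of all genes higher and 12%, 10%, 11.7% and 10.5% lower.

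Genes of NAD supply, the substrate of the PARPs, had 3 members called higher in each treated library, of 6 or 7 compared, and 1, 1, 0 and 1 called lower, with medians of 0.54, 0.53, 0.47 and 0.45 in PAZA, BMN, the low dose and the high dose. Over all genes, 11.6%, 14.1%, 12.2% and 9.11% were called higher and 16.2%, 7.54%, 14.8% and 20.8% lower, and the medians were −0.10, 0.10, −0.08 and −0.22. Centred on the median of all genes, 4, 3, 3 and 3 were higher and 1, 1, 0 and 0 lower, beside 14.9%, 11.3%, 14.7% and 14.8% of all genes higher and 12%, 10%, 11.7% and 10.5% lower. NMNAT3 was at 0.636 in Control and between 2.12 and 3.47 in the treated libraries, and NMRK1 at 3.86 and between 5.84 and 8.54. NADSYN1 was at 3.90 in Control and at 9.37 in BMN but 2.79 in the low dose, whereas NMNAT2 was at 1.62 in Control, 0.331 in PAZA, 0.467 in BMN and 4.49 in the low dose. NMNAT3 and NMNAT2 lie near the level of 1 at which genes entered the comparison. NAMPT, the main enzyme of NAD salvage, was at 177 in Control and at 115 in the high dose, and its low-dose level was 167 here and 333 or 274 from other tables. Its log2 fold change in the low dose was −0.09 here but 0.91 or 0.63 with the other tables, which are past 1.5-fold and would make 4 genes of the list higher in the low dose. PARP16, of the 4 mono-ADP-ribosyltransferases, was at 4.81 in Control, 3.35 in PAZA, 2.76 in BMN, 5.37 in the low dose and 2.11 in the high dose. It was called lower in BMN and in the high dose, 1 of 4 beside 7.54% and 20.8% of all genes, and the rest of that list had none called against Control, although 1 more was lower in BMN once centred. AIFM1 and MIF, which carry out death by excess poly(ADP-ribose), were called in none of the 4 comparisons against Control, although 1 of them was lower in BMN once centred on the median of all genes. Skeletal muscle markers summed to 60.8 in BMN and 65.2 in the high dose, against 1.44 in Control, 11.8 in PAZA and 2.96 in the low dose, with CKM listed at 0 in the low dose. The adipocyte markers FABP4 and ADIPOQ summed to between 42.8 and 104, with ADIPOQ listed at 0 in Control and the low dose.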
